A study of Mus musculus with 9 samples.

Results

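The 8 genes described here are Mog, Mobp, Opalin, Ermn, Klk6, Hapln2, Gfap and Aqp4, which are known from the glia of the central nervous system. They were taken by symbol as a readout of the central glial part of the auditory nerve, and all 8 had a row among the 25579 gene symbols of the second deposited table. The first deposited table, with 1410 symbols, held 1 of them, Klk6. The members were listed with earlier results of these data known, so their levels and differences are a description.

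RNA came from the soft tissue of the mouse cochlea, the membranous labyrinth, at postnatal day 28. There were 9 libraries in 3 groups of 3: wild type for Mpzl2 (WT), homozygous for the allele Q74X of humanized MPZL2 (hMPZL2Q74X/Q74X, called homozygous or untreated below), and hMPZL2Q74X/Q74X with treatment. Treated mice had received the vector AAV-ie-ABE8eWQ-SpRY with the guide sgRNA3, an adenine base editor, by the round window route at postnatal day 2. The labels name no injection for the other groups and no promoter for the editor. Values are TPM, which are relative to transcript length and to the total of the library. The first table holds WT and untreated homozygous libraries, and the second holds untreated and treated homozygous libraries.

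As background, the auditory nerve changes its glia on its way out of the cochlea. Schwann cells myelinate the peripheral stretch, and oligodendrocytes with astrocytes take over in the central stretch near the brainstem. Both kinds of myelin share proteins such as Mbp, while Mog, Mobp, Opalin and Ermn belong to oligodendrocytes. Gfap and Aqp4 are best known from astrocytes, although Aqp4 is also made by supporting cells of the cochlea and Gfap by some peripheral glia. In bulk RNA, fewer cells of a type and less RNA per cell cannot be told apart.

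Promoter sequence is shown for the 3 members whose window held the SOX core described next and for Mog, which held a form of the MYRF motif. RefSeq promoters of build GRCm38.p6 were matched for 7 of the 8 members with 8 start sites; Aqp4 was not matched. Each was searched over the 250 bases before the start, on both strands, for ACAAAG, the core bound by SOX proteins, for CTGGCAC and CTGGTAC, forms of the MYRF motif, for TTGGCA, a core bound by nuclear factor I, for TTCNNNGAA, a STAT motif, and for TATAAA. Positions are counted back from the start site, and the stretch from -250 to -71 is printed for each gene, 5′ to 3′ in the direction of the gene. Capitals mark ACAAAG or its reverse complement CTTTGT in Mobp, Klk6 and Opalin, and the reverse complement of CTGGTAC in Mog.
Mobp, chr9:120149492-120149671, plus strand: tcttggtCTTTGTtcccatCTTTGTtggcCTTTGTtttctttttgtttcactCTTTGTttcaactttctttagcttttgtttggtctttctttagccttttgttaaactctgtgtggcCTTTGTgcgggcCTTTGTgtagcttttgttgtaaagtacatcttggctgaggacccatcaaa
Klk6 (first start), chr7:43824294-43824473, plus strand: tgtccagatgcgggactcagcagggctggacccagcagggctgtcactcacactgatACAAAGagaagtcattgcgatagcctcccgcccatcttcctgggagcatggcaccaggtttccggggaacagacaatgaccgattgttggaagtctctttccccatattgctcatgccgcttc
Opalin, chr19:41077184-41077363, minus strand: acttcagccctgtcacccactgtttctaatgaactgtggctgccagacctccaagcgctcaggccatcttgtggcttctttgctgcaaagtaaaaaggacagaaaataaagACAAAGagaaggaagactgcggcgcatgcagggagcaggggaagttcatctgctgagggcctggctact
Mog, chr17:37023469-37023648, minus strand: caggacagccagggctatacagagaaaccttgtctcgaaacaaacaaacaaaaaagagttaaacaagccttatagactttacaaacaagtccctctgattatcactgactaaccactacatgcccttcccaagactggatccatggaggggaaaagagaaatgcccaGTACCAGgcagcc

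ACAAAG stood 6 times in the Mobp window, always as CTTTGT on the printed strand. Of 32851 RefSeq promoter windows of the same length, 16.5% held ACAAAG at least 1 time, 7 held it 4 times or more, and Mobp was the 1 window that held it 6 times. The windows of Klk6 (first start) and Opalin held it 1 time each. Mog held CTGGTAC, which 1.83% of windows hold, and Hapln2 held CTGGCAC, which 4.19% hold. The windows of Ermn, Gfap and the second start of Klk6 held none of the 6 motifs, and TTGGCA, TTCNNNGAA and TATAAA were in no member's window. These are matches of letters only.

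Some libraries stand apart, and this bears on the values below. Treated libraries 1 and 2 barely differed: at 1 to 5 TPM the log2 ratio between them had a spread of 0.0695, against 0.869 to 1.09 between untreated homozygous libraries. They were counted as 1 sample through their mean, so the treated group had 2 samples. The same pair held transcripts of forebrain neurons. The 17 forebrain projection neuron genes summed to 1263 and 1243 TPM there, to 138 TPM in treated library 3 and to 77.3 to 99.2 TPM in the untreated libraries. Camk2a, a kinase gene of excitatory neurons, was at 745 and 722 TPM in the pair, at 8.13 TPM in treated library 3 and at 0.471, 0.503 and 0.554 TPM in the untreated libraries. Neurod6, Sst and Vip, genes of forebrain neurons named here after their values were seen, were listed at 0 in treated library 3 and in the 3 untreated libraries, and the 9 inhibitory neuron genes summed to 135 and 131 TPM in the pair and to 1.97 to 11.5 TPM in the other 4 libraries. The part of this RNA in the results was not tested. Genes that define the cochlea, among them Coch, were present in all 6 libraries, with 4141, 4004 and 3735 TPM in treated and 7698, 7639 and 6110 TPM in untreated libraries. Of the 14 tested genes of cochlear sensory and lateral wall cells 10 had a log2 fold change above 0, beside 10435 of all 17102 tested genes. The median of the 14 was 0.82, beside 0.20 over all tested genes. In treated library 3, 12 of the 14 were above the untreated mean, beside 9328 of all tested genes. Otog, a tectorial membrane gene, rose (log2 fold change 2.05, limma adjusted p = 0.0223), and Coch did not pass (adjusted p = 0.165). The share of TPM from the mitochondrial genome was 13.6%, 10.7% and 13.4% in untreated and 2.17%, 2.22% and 6.16% in treated libraries. The part of these differences in the results was not tested. Sequencing depth is unknown.

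Mobp, which encodes a small basic protein of compact central myelin, was the most abundant of the 8 genes in every untreated library. Its level was 342, 102 and 489 TPM in untreated homozygous libraries 1, 2 and 3, and 45.1, 47.6 and 17.1 TPM in treated libraries 1, 2 and 3. Mog, which encodes a glycoprotein on the outer face of central myelin, was at 34.0, 14.7 and 34.0 TPM in untreated and at 3.29, 3.25 and 0 TPM in treated libraries. For both genes every treated library was below every untreated one, and library 2 was the lowest of the untreated libraries.

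Ermn encodes ermin, a cytoskeletal protein of mature oligodendrocytes. It was at 36.6, 5.16 and 48.4 TPM in untreated libraries and at 4.03, 3.38 and 0.828 TPM in treated ones. Untreated library 2 lay far below the other untreated libraries and close to treated libraries 1 and 2, without crossing them. Opalin, which encodes an oligodendrocyte membrane protein, went against the label: it was listed at 0, 0.713 and 0.288 TPM in untreated libraries and at 0 in the 3 treated libraries, so no fold is given. The other oligodendrocyte genes were therefore measured in these libraries with Opalin close to absent.

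Klk6 encodes kallikrein-related peptidase 6, a secreted serine protease of mature oligodendrocytes. Its level was 38.6, 10.1 and 32.0 TPM in untreated libraries, and it was listed at 0 in treated libraries 1, 2 and 3. Of the 9702 genes at 10 TPM or more in all 3 untreated libraries, 2 were listed at 0 in all 3 treated libraries. One was Klk6 and the other was Gm56451, a predicted gene named here after its values were seen, with 61.2, 11.03 and 59.6 TPM in untreated libraries. In the opposite direction, 2 genes at 10 TPM or more in every treated library were listed at 0 in every untreated one. With TPM alone, a listed 0 gives no upper limit on the level.

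Hapln2 encodes a link protein of the matrix around central nodes of Ranvier. It was at 25.7, 7.49 and 28.5 TPM in untreated libraries and at 15.4, 15.2 and 0.428 TPM in treated ones. Treated libraries 1 and 2 lay between untreated library 2 and the other untreated libraries, while treated library 3 was nearly without the transcript.

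The astrocyte genes followed the order of Hapln2. Gfap, the intermediate filament of astrocytes, was at 110.3, 34.1 and 112 TPM in untreated libraries and at 63.2, 62.0 and 8.20 TPM in treated ones. Aqp4, the water channel of astrocyte endfeet, was at 89.0, 29.1 and 86.0 TPM in untreated and at 39.8, 38.0 and 22.0 TPM in treated libraries. For both genes treated libraries 1 and 2 were above untreated library 2 and below untreated libraries 1 and 3, and treated library 3 was the lowest of the 6.

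**Figure D1:**
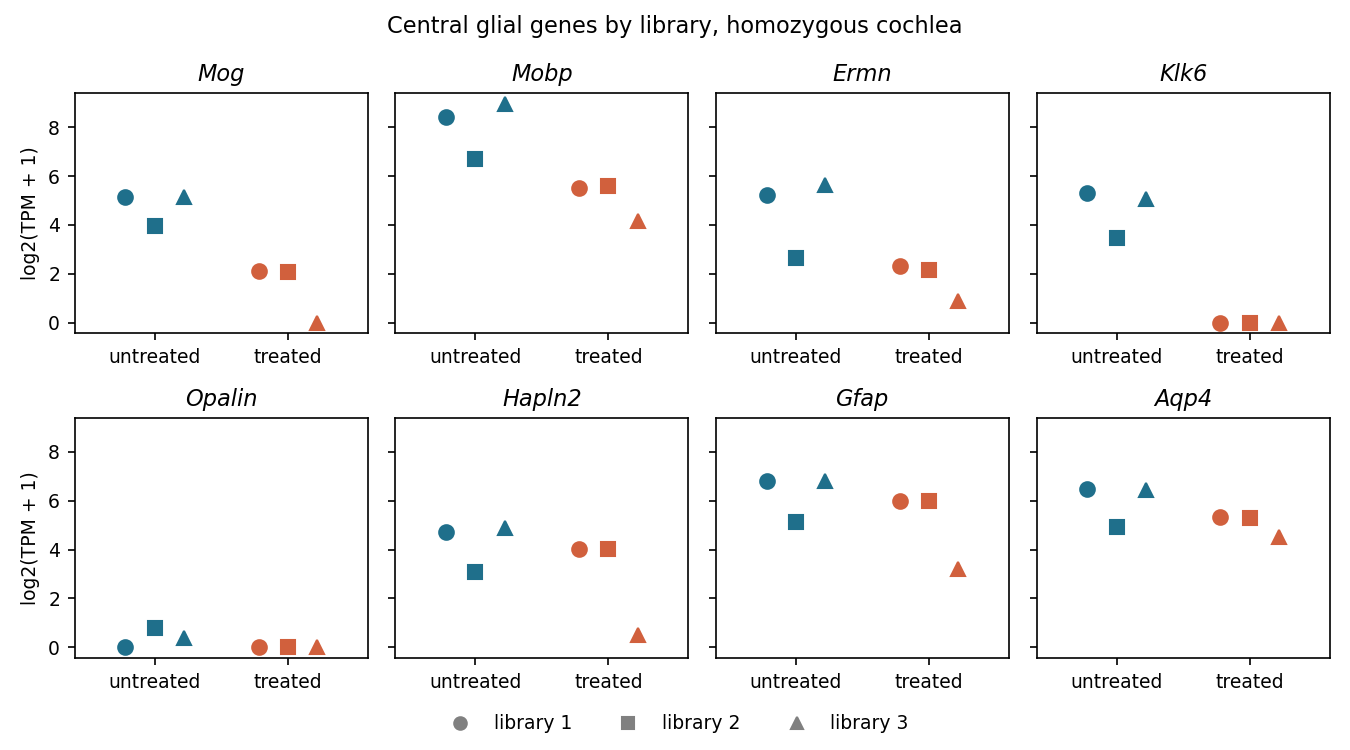
Level of each of the 8 genes as log2(TPM + 1) in the 3 untreated and 3 treated homozygous libraries of the second table; each symbol is 1 library, and treated libraries 1 and 2 are near-identical. Untreated library 2 is the lowest untreated point for 7 genes, Klk6 sits at 0 in all treated libraries, and Opalin stays at or near 0 throughout.

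The first question was how the 8 genes vary among untreated cochleae of 1 genotype. Of the 7 members that had at least 1 TPM in at least 3 libraries and were tested, 7 had their lowest untreated value in library 2, as did 33.4% of the 17102 tested genes. Library 1 was 3.35-fold above library 2 for Mobp, 7.10-fold for Ermn, 3.80-fold for Klk6, 3.23-fold for Gfap and 3.06-fold for Aqp4. Library 3 was 4.79-fold above library 2 for Mobp and 9.37-fold for Ermn. The median difference in log2(TPM + 1) over the 7 members was 1.66 for library 1 minus library 2 and 1.68 for library 3 minus library 2, beside -0.06 and -0.01 over all tested genes. The SD between the 3 untreated libraries was 1.63 for Ermn and 1.18 for Mobp on that scale, against a median of 0.26 over all tested genes. Mog, with an SD of 0.67, was the least variable of the 7, and its SD was above that of 91.0% of tested genes.

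Other gene groups of the nerve were also low in untreated library 2, by less. Of 33 further oligodendrocyte genes 26 were lowest there, with medians of 0.90 and 0.87 for libraries 1 and 3 minus library 2. Among them Mbp, the basic protein of myelin, was at 2523, 1092 and 2884 TPM. Of 17 tested spiral ganglion neuron genes 16 were lowest in library 2, with medians of 0.73 and 0.77. Of 17 tested Schwann cell genes 14 were lowest there, with medians of 0.44 and 0.58. The difference between the lists was not tested.

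Genes of the sensory and lateral wall cells did not follow this order. Of 14 genes of cochlear sensory and lateral wall cells 2 were lowest in library 2, beside 33.4% of all tested genes. Of the same 14 genes 7 were highest there, beside 6923 of all 17102 tested genes. The medians of the 14 were -0.33 and -0.30, beside -0.06 and -0.01 over all tested genes. Of 23 other astrocyte genes 12 were lowest in library 2, beside the 33.4% of all tested genes given above, with medians of 0.26 and 0.04. Many of these, such as S100b at 1610, 2917 and 1291 TPM, are also used by other cochlear cells. The shares of tissue parts in each dissection are not given in the sources used here.

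**Figure D2:**
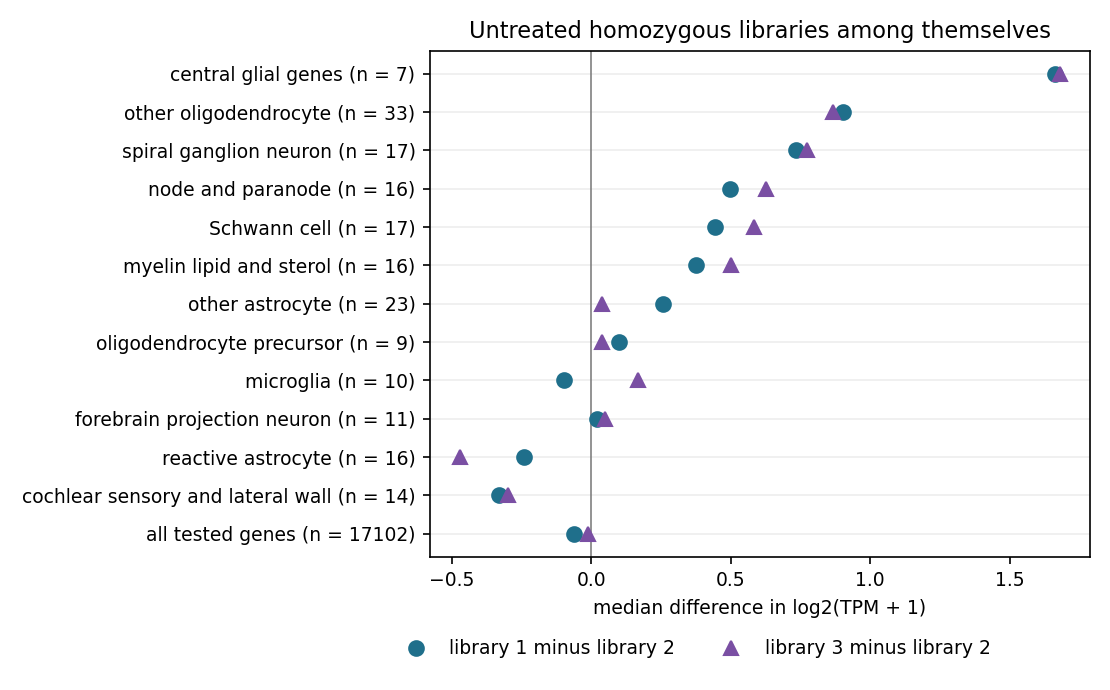
Median difference in log2(TPM + 1) of untreated libraries 1 and 3 from untreated library 2, for the central glial genes, 11 fixed gene lists and all tested genes (number of tested genes in brackets; no error bars, since 1 library is set against 1). The central glial genes lie at 1.66 and 1.68, the other oligodendrocyte genes at 0.90 and 0.87, and cochlear sensory and lateral wall genes at -0.33 and -0.30.

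The second question was how the members differ between treated and untreated homozygous cochleae. Mog averaged 27.5 ± 11.1 TPM in untreated (SD, n = 3) and 1.64 ± 2.31 TPM in treated samples (SD, n = 2), and its log2 fold change on the log2(TPM + 1) scale was -3.70 (standard error 0.70). Mobp averaged 311 ± 195 and 31.7 ± 20.7 TPM (SD, n = 3 and 2), with a log2 fold change of -3.15 (standard error 0.70). Ermn averaged 30.05 ± 22.3 and 2.27 ± 2.03 TPM (SD, n = 3 and 2), with a log2 fold change of -2.94 (standard error 0.94). Hapln2, Gfap and Aqp4 had smaller values of -1.96, -1.65 and -1.03, with standard errors of 1.06, 0.87 and 0.53.

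Mog and Klk6 were the 2 of 7 tested members past the threshold of 0.05, with limma adjusted p of 0.0415 and 0.0186, beside 0.965% of all tested genes called lower and 4.41% called in either direction. Mobp had an adjusted p of 0.0572, Ermn one of 0.113, and Hapln2, Gfap and Aqp4 ones of 0.284, 0.275 and 0.261. The groups did not overlap for 4 of the 7, which were Mog, Mobp, Ermn and Klk6, beside 14.8% of all tested genes that lay lower without overlap. Klk6 passed the filter on low values only through the untreated group, where it was high. Since the members were chosen with these values known, nothing is read from the counts. Over the 7 members the median log2 fold change was -2.94, beside 0.20 over all tested genes, of which 165 fell and 589 rose. Median-of-ratios scaling shifted the fold changes by a median of -0.18 and gave 231 lower and 402 higher genes, and leaving mitochondrially encoded genes out of the totals shifted them by -0.13 and gave 208 and 445. Under the first of these no member changed sides of the threshold, with log2 fold changes of -3.87 for Mog and -1.22 for Aqp4.

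The treated libraries were not alike for these genes. Against the mean of the untreated libraries, the averaged pair of treated libraries 1 and 2 differed in log2(TPM + 1) by -0.21 for Hapln2, -0.26 for Gfap and -0.63 for Aqp4, and treated library 3 by -3.72, -3.05 and -1.43. For Mog, Mobp and Ermn the pair differed by -2.65, -2.45 and -2.26, and library 3 by -4.74, -3.84 and -3.62. Without treated library 3, Hapln2 and Gfap had adjusted p of 0.859 and 0.811 by limma. With library 3 alone, Mog kept its call (adjusted p = 0.0429) and Klk6, listed at 0 there as in the other treated libraries, lost it (adjusted p = 0.0644). In these fits the treated arm is 1 sample, which is assumed to vary like the untreated libraries. Without untreated library 1 or 3, 0 members were called, while 7 of the 7 tested members stayed below 0 in each of those fits, as they were in the fit of all libraries beside 39% of all tested genes. Mog also lost its call without untreated library 2 (adjusted p = 0.0732), where Mobp passed (adjusted p = 0.0472).

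The astrocyte genes kept a similar proportion to Mobp in untreated libraries and not in treated ones. Gfap was at 32.2%, 33.5% and 22.8% of the Mobp level in untreated libraries 1, 2 and 3, although Mobp itself differed 4.79-fold between libraries 2 and 3. In treated libraries 1, 2 and 3 Gfap was at 140.3%, 130.4% and 48.1% of Mobp. Aqp4 was at 26.0%, 28.5% and 17.6% of Mobp in untreated and at 88.3%, 79.8% and 129% in treated libraries. For both astrocyte genes, all treated libraries had a higher ratio to Mobp than all untreated ones. Mobp was chosen with its low treated values known, and a gene that fell less has a raised mean ratio to it. Nothing particular to astrocyte genes is read from this.

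Hapln2 made up 7.50%, 7.35% and 5.84% of Mobp in untreated libraries, and 34.3%, 31.9% and 2.51% in treated libraries 1, 2 and 3. Only the near-identical pair had a raised ratio of Hapln2. Ermn stayed between 4.86% and 10.7% of Mobp in the 6 libraries, and its groups overlapped. Mog was at 9.93%, 14.4% and 6.95% of Mobp in untreated and at 7.30%, 6.84% and 0% in treated libraries. Klk6 was at 11.3%, 9.95% and 6.55% of Mobp in untreated libraries and was listed at 0 in treated ones.

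**Figure D3:**
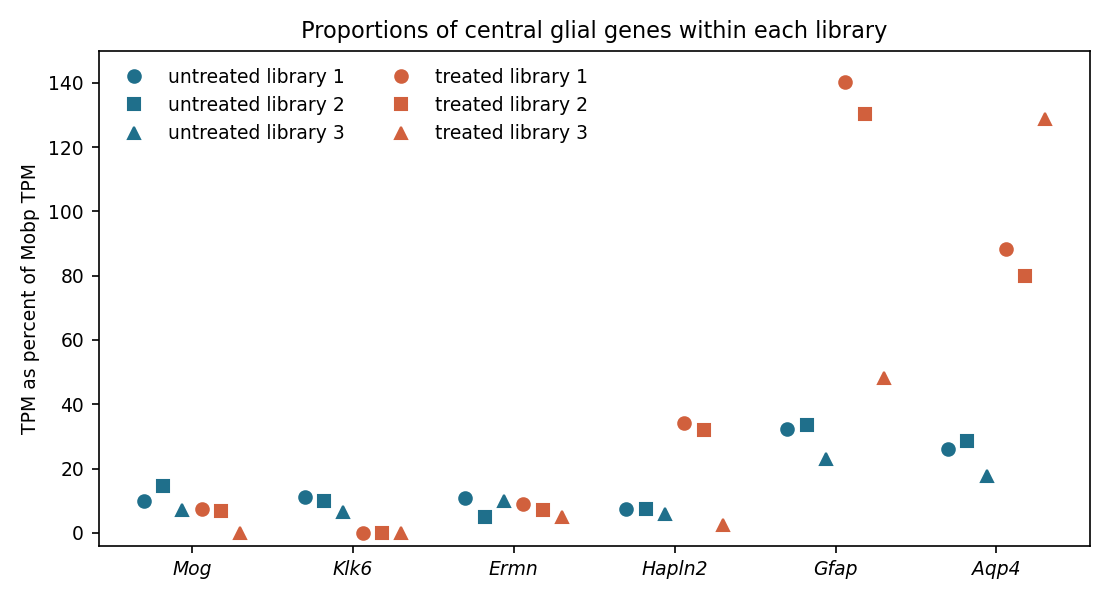
TPM of 6 members as a percentage of the Mobp TPM of the same library; each symbol is 1 of 3 untreated or 3 treated libraries. Gfap and Aqp4 lie at 17.6% to 33.5% in untreated libraries and at 48.1% to 140.3% in treated ones, Hapln2 is raised in treated libraries 1 and 2 alone, and Klk6 is at 0 in treated libraries.

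Of the 33 other oligodendrocyte genes, 26 had a log2 fold change below 0, and 0 passed the test in either direction (limma, threshold 0.05). An unadjusted p under 0.05 was reached by 9 of them, all lower, beside 7.92% of all tested genes lower and 26.7% in either direction. Their median log2 fold change was -0.74. Tmem88b had a difference of -1.99 on the log2 scale (limma adjusted p = 0.0817), and Enpp6, a choline phosphodiesterase of oligodendrocytes, was at 19.6, 18.2 and 19.8 TPM in untreated and at 6.55, 7.70 and 2.11 TPM in treated libraries (adjusted p = 0.0579). Mbp, which both myelins use, had -0.71 (adjusted p = 0.346). Plekhb1 was at 364, 393 and 403 TPM in untreated and at 426, 428 and 554 TPM in treated libraries. The summed level of the 33 genes was 5835, 3123 and 6686 TPM in untreated and 2998, 2899 and 3055 TPM in treated libraries.

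Genes of earlier oligodendrocyte stages gave no calls. Of 9 tested precursor genes 8 were above the untreated mean in treated libraries 1 and 2, beside 10757 of all 17102 tested genes. In treated library 3, 5 of the 9 were, beside 9328 of all tested genes. Cspg5, a brain chondroitin sulfate proteoglycan, was at 5.72, 6.50 and 8.42 TPM in untreated and at 101, 100.3 and 19.9 TPM in treated libraries (log2 fold change 2.56, limma adjusted p = 0.0703). Gpr17, a receptor of cells about to become oligodendrocytes and named here after its values were seen, was at 5.37, 0.850 and 5.75 TPM in untreated and at 25.1, 23.5 and 0.409 TPM in treated libraries. Lhfpl3 went the other way, from 91.4, 57.8 and 111.8 TPM to 36.9, 36.4 and 24.9 TPM (log2 fold change -1.44, adjusted p = 0.0577). Of the 9, 0 passed and 2 had an unadjusted p under 0.05 by limma, beside 26.7% of all tested genes.

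Of 23 astrocyte genes other than Gfap and Aqp4, 16 were above the untreated mean in treated libraries 1 and 2, while 17 were below it in treated library 3. Of all 17102 tested genes 10757 were above it in the pair and 7774 below it in library 3. Slc1a2, the main glutamate transporter of astrocytes, was at 123, 137 and 137 TPM in untreated libraries, at 1229 and 1236 TPM in the pair and at 174 TPM in treated library 3. Aldh1l1, a folate enzyme of astrocytes, was at 9.84, 8.06 and 9.25 TPM in untreated and at 38.1, 38.2 and 15.2 TPM in treated libraries. Neither passed (limma adjusted p = 0.175 and 0.113), and 0 of the 23 did. An unadjusted p under 0.05 was reached by 3 of the 23, beside 26.7% of all tested genes. Gfap and Aqp4 were below the untreated mean in the same pair of libraries. The forebrain genes given above were high in this pair, and their part in these values was not tested.

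**Figure D4:**
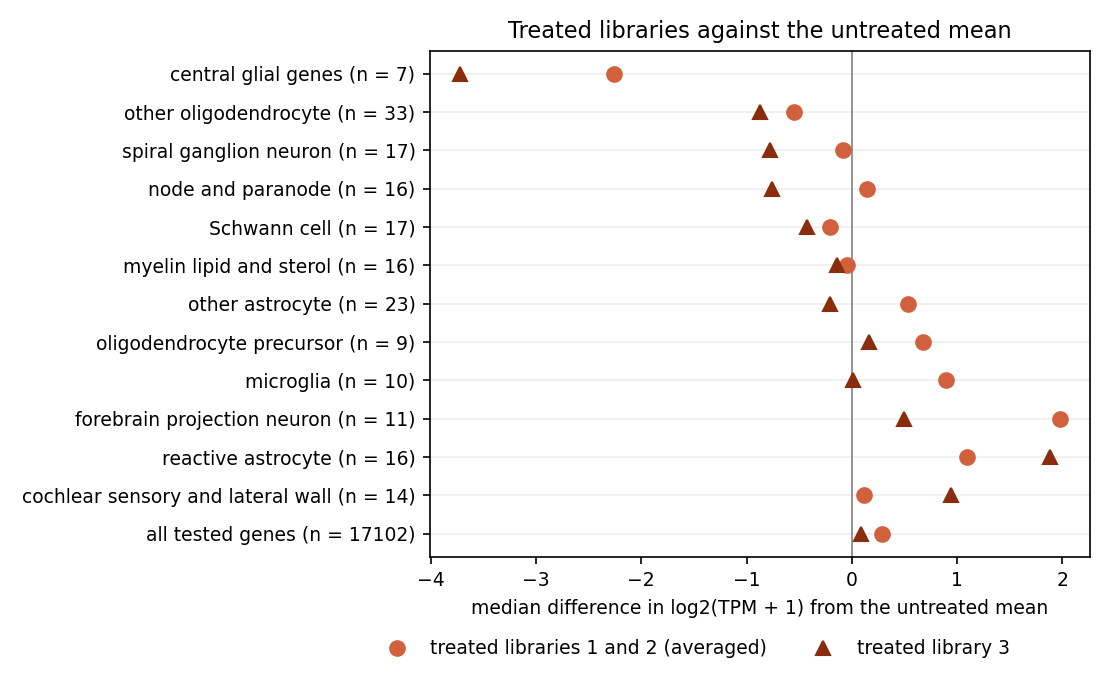
Median difference in log2(TPM + 1) from the untreated mean, for treated libraries 1 and 2 averaged and for treated library 3, over the central glial genes, 11 fixed gene lists and all tested genes (number of tested genes in brackets; no error bars). The central glial genes lie lowest, at -2.26 and -3.72; the other astrocyte genes lie at 0.53 and -0.21, and forebrain projection neuron genes at 1.97 and 0.50.

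Other groups linked to the members' roles gave few calls. The counts at an unadjusted p under 0.05 stand beside 26.7% of all tested genes in either direction. Of 16 genes of nodes, paranodes and their matrix 0 passed and 3 had an unadjusted p under 0.05, with Kcna1, a juxtaparanodal potassium channel, at -0.97 on the log2 scale (limma adjusted p = 0.0738). Of 16 genes of myelin lipid and sterol synthesis 0 passed and 4 had an unadjusted p under 0.05, and Hmgcs1, an enzyme of sterol synthesis, had -1.07 (adjusted p = 0.0732). Of 17 tested Schwann cell genes 0 passed and 3 had an unadjusted p under 0.05, with a median log2 fold change of -0.08. Of 17 spiral ganglion neuron genes 2 were called lower, beside 0.965% of all tested genes. These were the neurofilament genes Nefl and Nefh, with log2 fold changes of -1.41 and -1.39 (limma adjusted p = 0.0464 and 0.049). Both calls are close to the threshold, and the list had 0 lower calls without untreated library 1 or 3 or treated library 3, and 1 without treated library 2.

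Of 16 genes raised in reactive astrocytes 7 rose and 0 fell, beside 3.44% of all tested genes called higher; without untreated library 1 the count was 3. Gbp2, a guanylate-binding protein, was at 7.36, 4.07 and 5.57 TPM in untreated and at 238, 225 and 241 TPM in treated libraries (log2 fold change 5.19, limma adjusted p = 0.0013). H2-D1, a class I antigen presentation gene, had a log2 fold change of 4.08 (adjusted p = 0.00278). Vim, the filament partner of Gfap, was at 294, 310.3 and 271 TPM in untreated and at 411, 497 and 385 TPM in treated libraries and did not pass (adjusted p = 0.126). Many genes of this list are induced by interferon in other cell types too.

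Relatives of the members did not share one direction. Their counts at an unadjusted p under 0.05 also stand beside 26.7% of all tested genes in either direction. Hapln1, the cartilage link protein, had a log2 fold change of -1.75 and Hapln4, a link protein of brain matrix, one of -0.12 (limma adjusted p = 0.0708 and 0.84). The 5 tested genes of their list were Hapln1, Hapln4, the lectican gene Acan and the hyaluronan synthase genes Has1 and Has3. Of these 5, 0 passed and 2 had an unadjusted p under 0.05. Of 8 tested genes of the aquaporin family and the endfoot complex 0 passed and 4 had an unadjusted p under 0.05, with Dmd, the dystrophin gene, at -0.76 and Aqp11 at 1.03 (adjusted p = 0.109 and 0.0836). The list of proteases and partners around Klk6 had 5 tested genes, which were Klk8, F2r, F2rl1, Bace1 and Prss23. Klk8 was the only kallikrein neighbour of Klk6 among them, and the others of the list were not tested. Of these 5, 0 passed and 1 had an unadjusted p under 0.05. Klk8, a neuronal kallikrein and that gene, was at 0.655, 1.56 and 0 TPM in untreated and at 2.63, 2.57 and 4.76 TPM in treated libraries. Of 7 other intermediate filament genes 0 passed and 6 had an unadjusted p under 0.05, with Lmna at 1.06 and Synm at -0.88 (adjusted p = 0.0821 and 0.0609).

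The third question was how Klk6, the 1 member in the first table, compares between genotypes. Its level was 0.908, 13.5 and 2.28 TPM in WT libraries 1, 2 and 3 and 28.4, 7.09 and 21.6 TPM in untreated homozygous libraries 1, 2 and 3. The groups overlapped, since WT library 2 was above homozygous library 2. The means were 5.57 ± 6.92 and 19.0 ± 10.9 TPM (SD, n = 3 each). The log2 fold change of 1.96 (standard error 0.74) did not pass (limma adjusted p = 0.0524). The value was 2.81 without WT replicate 2 (adjusted p = 0.0326) and 2.52 without homozygous replicate 2 (adjusted p = 0.0413). Of all tested genes there, 17.9% were called higher and 33.5% lower, and with median-of-ratios scaling, which shifted fold changes by 0.14, 465 genes were higher and 216 lower. Klk6 passed under that scaling (limma adjusted p = 0.0461). The scaling takes the typical row as unchanged, which a table of selected rows need not meet, so nothing is read from the pass. The rows of this table may have been selected on these same samples.

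Of the 33 other oligodendrocyte genes 4 had a row in the first table, Anln, Tmem63a, Pls1 and Cldn11. All 4 had a positive log2 fold change, beside 620 of all 1348 tested genes there. Pls1 passed narrowly with 0.65 on the log2 scale (limma adjusted p = 0.0489), beside 17.9% of all tested genes there called higher. Its level was 19.0, 22.3 and 32.2 TPM in homozygous libraries 1, 2 and 3, so it lacked the low library 2 value of Klk6. Of the 4, Anln alone was lowest in homozygous library 2. Which cells the Pls1 transcript came from cannot be told from bulk RNA. Without WT replicate 1 or 3, or any 1 homozygous replicate, 0 of the 4 passed. Cldn11, a claudin of central myelin that the stria also uses, had 0.57 (adjusted p = 0.0582). Since the rows may have been selected on these same samples, nothing is read from these counts. The same homozygous libraries gave Klk6 values 1.36, 1.43 and 1.48 times higher in the second table, so levels were not set across tables.

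**Figure D5:**
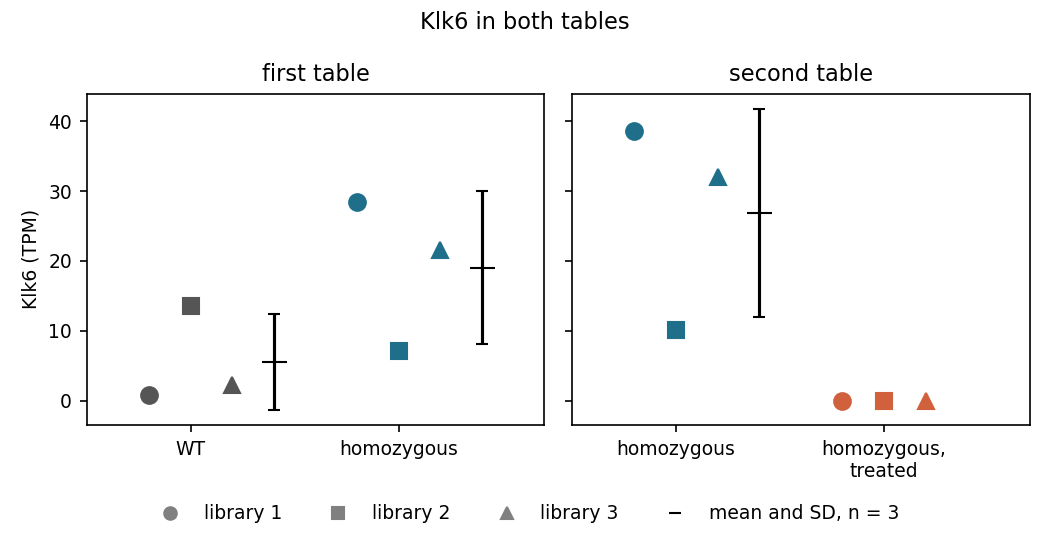
Klk6 level in TPM by library in both tables, with the mean and SD (n = 3) beside each group that is not at 0. WT libraries lie at 0.908 to 13.5 TPM and homozygous libraries at 7.09 to 28.4 TPM in the first table; in the second, homozygous libraries lie at 10.1 to 38.6 TPM and treated libraries are listed at 0.

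The genes with the pattern most like the mean of the 8 members were found over the 6 libraries of the second table. Likeness was the root mean square difference between profiles of log2(TPM + 1), each centred on its own mean. The candidates were 14839 genes of at least 1 TPM on average, other than the members. Genes with Gm, Rik or other irregular symbols were left out, so Gm56451 could not be ranked. The closest was Ankrd45 (difference 0.16), at 18.4, 5.94 and 25.0 TPM in untreated and 4.38, 4.13 and 1.12 TPM in treated libraries. Tceal5 (0.20), Nexn (0.25), Ankrd34b (0.33) and Osr1 (0.39) followed, then Elavl4, Jakmip2, Hapln1, Eif3j2 and Chgb with 0.41 to 0.45. Among the members themselves Mobp was closest to their mean (0.42) and Klk6 farthest (1.32), so the first 7 of these genes were closer to the mean than any member was. Treated libraries 1 and 2 enter this measure as separate libraries although they are near-identical.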

How the data were processed

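RNA was sequenced from stranded total RNA libraries, per the labels' protocols. The authors deposited TPM in 2 tables. Per the submitters' processing notes, kallisto 0.51.0 and DESeq were used with build GRCm39; no source used here says how rows of the first table were chosen. TPM keeps no depth, so no interval or floor is given. Groups came from sample titles, because the genotype field counts upward from sample to sample. Repeated symbols were summed. The tests took genes at 1 TPM or more in 3 or more libraries, 17102 in the second table and 1348 in the first. limma 3.58.1 in R 4.3.3 was fitted within each table to log2(TPM + 1) with a mean-variance trend, two-sided, with Benjamini-Hochberg adjustment over all tested genes. Treated libraries 1 and 2 were averaged into 1 sample. The scripts were tested on simulated data. The labels call replicates biological without naming animals, so p-values measure the spread between these samples. The members and the 18 gene lists were chosen with earlier results of these data known. From each list the text names the 3 genes with the highest mean TPM and the 2 with the smallest p, or some of them; others are said to be named after their values were seen. Alternatives were other pseudocounts, filters, scalings, a replicate block and single libraries left out. Results for some genes are not reported here.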

Additional observations from a re-analysis of the deposited data

How the results depend on the processing

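All 7 tested members kept a log2 fold change below 0 in treated libraries under every alternative run. The 2 members called lower became 1 with a pseudocount of 0.1 or 0.5 TPM, with no mean-variance trend and with treated library 3 alone, and 0 with no filter on low values; with 1 replicate left out the count was 0 to 2. The 754 genes called in that comparison became 134 with no filter, 479 with no trend, 222 with treated library 3 alone, 3563 with treated libraries 1 and 2 as separate samples and 63 to 2984 with 1 replicate left out. Same-numbered libraries did not deviate together (correlations of -0.15 to 0.03 and of -0.14 to 0.05). Deviations were taken from the mean of each group of 3, and treated libraries 1 and 2 are near-identical. The check therefore cannot decide whether the numbers pair samples, and the main fits used no pairing. With a replicate block, and treated libraries 1 and 2 separate, 1485 genes and the same count of 2 members were called; in the first table the replicate block gave 343 genes against 692. With 1 replicate left out, 103 to 611 genes of the first table were called. Klk6 had a log2 fold change of 1.34 to 2.81 there with 1 replicate left out. It was 2.08 with median-of-ratios scaling (limma adjusted p = 0.0461), with the limit on that scaling given above. The causes were not tested. The first table held no mitochondrially encoded genes, so that rescaling could not be run there. Unknown depth limits every statement on genes listed at 0.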
